A study of Mus musculus with 20 samples.

Results

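The inguinal subcutaneous fat pads of 5 mice at metestrus were compared with those of 5 mice at diestrus. These are 10 of the 20 libraries of the series, chosen by the stage in their labels, and the other 10 are 5 at proestrus and 5 at estrus. All mice were 8-week-old C57BL/6 females with free access to food, and each gave 1 library of polyadenylated RNA. The groups differ in the stage read from vaginal smears: nucleated cells, cornified cells and leukocytes were mixed at metestrus, and leukocytes prevailed at diestrus. Serum hormones differed too: the authors found estrogen and progesterone both higher at metestrus than at diestrus. In their values for single mice estrogen overlapped between the stages and progesterone did not. The part of these hormones in the results was not tested, and no measure of corticosterone is given in the sources used here. Each stage was seen in different mice, so no mouse was followed from one to the next. The hour at which fat was taken is not given in the sources used here. The values are the authors' FPKM, that is, fragment numbers made relative to the length of the gene and the size of the library. They were analysed as log2(FPKM + 1), and a change is diestrus minus metestrus on that scale, which understates the change of genes with low levels.

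Metestrus follows ovulation, when corpora lutea form, and diestrus is the longer stage after it. White fat stores triglyceride. Insulin drives the adipocyte to take up glucose. It also drives the making of fatty acids, through the factors SREBP-1c and ChREBP, and keeps FoxO factors out of the nucleus. Glucocorticoids and fasting favour the release of fatty acids and turn on genes that spare glucose. The inguinal pad of a female mouse also holds the mammary ducts and a lymph node, so mammary and immune transcripts are part of it.

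From metestrus to diestrus 173 of 13987 genes tested changed in a fit of limma across all 20 libraries (1.24%, Benjamini-Hochberg adjusted p under 0.05). Of these, 117 fell (0.836% of the genes tested) and 56 rose (0.4%). These shares are to be set beside the counts of called list members below. The falls included 11 of 23 tested glucocorticoid-responsive genes and both main metallothioneins. The rises included Angptl8, the oxytocin receptor and genes of fatty acid and cholesterol synthesis. The gene lists were written with earlier results of these data known, so their counts and medians are descriptive only. In 94 of the falls and 47 of the rises the 5 libraries of one stage did not overlap the 5 of the other, against 3.25% of all genes tested. An unadjusted p under 0.05 (limma) was reached by 1693 of the genes tested (12.1%), the share to set beside such counts below. The change was over 1 on the log2 scale for 49 of the falls and 22 of the rises, and the median over all genes tested was -0.00179. Of the called genes 163 are protein-coding. The number of calls depended on single libraries. Leaving out metestrus-4 gave 43 calls, and leaving out metestrus-5 gave 53, as did diestrus-1. Leaving out diestrus-3 raised the number to 272. Among the rest of diestrus, the omission of replicate 4, 2 or 5 gave 70, 98 or 112 calls. The calls of 38 genes, 31 lower and 7 higher at diestrus, held in each of the 20 fits that left out 1 library. The split of rises and falls also depended on the scaling between libraries: 32.4% of the calls were rises as deposited, 45.6% (68 of 149) after rescaling to an equal total and 48.4% (75 of 155) with the mitochondrial genes left out. The fit to the 10 pads of the 2 stages kept 87 of the 173 calls, that with median-ratio size factors 106 and that without the filter 60. All the called genes that a fit included kept their direction under every scaling and every omission of a library.

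In measures of the whole library the stages differed by less than the spread between mice. The summed FPKM was 390980 to 448280 at metestrus and 378464 to 428110 at diestrus (exact permutation test, two-sided, p = 0.556), and the share of mitochondrial genes was 27.0% ± 3.04 and 28.4% ± 2.58 (SD, n = 5, exact permutation test, p = 0.405). The defining adipocyte markers were present in every pad, at a summed 3549 to 6023 FPKM at metestrus (median 5230.0) and 3469 to 5578 FPKM at diestrus (median 3621). The tissue around the adipocytes varied far more. The 6 skeletal muscle markers summed to 6321 FPKM in metestrus-3 and to between 2.85 and 53.8 FPKM in the other metestrus libraries, and without metestrus-3 the count was 157 genes, with 121 of the 173 calls kept. The 10 lymphocyte markers summed to 3.05 to 310.0 FPKM at metestrus and 5.50 to 285.1 FPKM at diestrus. All 10 had a higher mean log2 value at diestrus and 0 were called (limma, 0 at an unadjusted p under 0.05). With a lymphocyte score in the model all of the 173 genes stayed called, among 375. The 6 luminal mammary markers were lower in mean at diestrus (0 called), at 202.2 to 591.8 FPKM summed at metestrus and 257.1 to 446.7 FPKM at diestrus, and their part in the results was not tested. In bulk tissue fewer cells of a type and less RNA per cell cannot be told apart.

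**Figure D1:**
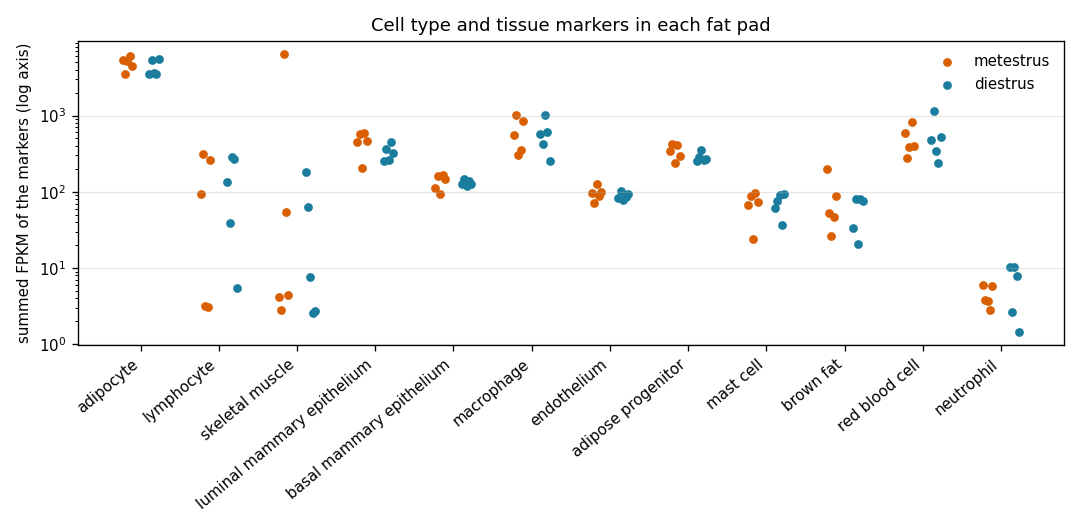
Summed FPKM of 12 marker lists (log axis) in each of the 5 metestrus and 5 diestrus fat pads, 1 point per mouse. The stages overlap in each list, and the muscle markers of metestrus-3 stand apart at 6321 FPKM.

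Of 25 listed glucocorticoid-responsive genes 23 were tested, 11 of these fell from metestrus to diestrus, 0 rose and 12 did not pass. The median change of the list was -0.93. Of its tested members 47.8% fell, against 0.836% of all genes tested. The 11 were Fkbp5, Tsc22d3, Mt1, Mt2, Pdk4, Ddit4, Cebpd, Sgk1, Lpin1, Nfkbia and Per1. The glucocorticoid receptor itself, Nr3c1, was at 22.5 ± 5.02 FPKM at metestrus and 31.96 ± 4.39 FPKM at diestrus and did not pass (log2 change 0.50, 95% interval 0.22 to 0.79, adjusted p = 0.0775). Fkbp5 (ENSMUSG00000024222), a co-chaperone that dampens the receptor, was at 28.03, 17.6, 17.6, 40.4 and 33.8 FPKM at metestrus and 3.57, 3.88, 8.56, 3.15 and 1.94 FPKM at diestrus, where values here and in the following are given in the order of libraries 1 to 5. The lowest metestrus pad was more than 2 times the highest diestrus pad (log2 change -2.49, standard error 0.33, adjusted p = 0.00111). Tsc22d3, the glucocorticoid-induced leucine zipper, was at 66.6, 65.02, 65.5, 83.1 and 74.7 FPKM at metestrus and 26.1, 17.5, 31.005, 23.6 and 16.2 FPKM at diestrus. The metestrus pads lay close together and every diestrus pad lay below them (log2 change -1.62, standard error 0.30, adjusted p = 0.012). Cebpd, a transcription factor of early adipogenesis (chromosome 16, 15887286 to 15891031), was at 10.8, 12.9, 10.96, 17.4 and 11.5 FPKM at metestrus and 5.26, 4.68, 6.43, 6.04 and 5.27 FPKM at diestrus (log2 change -1.06, standard error 0.20, adjusted p = 0.0127). Sgk1, a kinase induced by corticosteroids, was at 23.8, 29.5, 36.3, 33.5 and 24.9 FPKM at metestrus and 13.3, 8.45, 17.9, 17.01 and 11.9 FPKM at diestrus (log2 change -1.08, standard error 0.21, adjusted p = 0.0162), again without overlap. Nfkbia, the inhibitor of NF-kappa-B that glucocorticoids induce, was at 62.8, 82.6, 67.1, 78.2 and 83.1 FPKM at metestrus and 37.5, 24.6, 50.004, 47.9 and 30.8 FPKM at diestrus (log2 change -0.99, standard error 0.22, adjusted p = 0.0373). The 1 member with a higher mean at diestrus was Rasd1, a small GTPase that dexamethasone induces. It was at 19.8, 12.5, 18.5, 23.1 and 17.4 FPKM at metestrus and 21.3, 54.8, 27.6, 23.2 and 43.2 FPKM at diestrus and did not pass (log2 change 0.79, standard error 0.25, adjusted p = 0.133).

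Several members of the list did not depend on a single library. The calls of Fkbp5, Tsc22d3, Mt1, Mt2, Pdk4 and Ddit4 held in all 20 fits. Leaving out metestrus-4 left 6 members that fell, leaving out metestrus-5 or diestrus-1 left 8, and leaving out any other library left 9 to 12. In each of these fits 0 rose. Cebpd was lost without metestrus-4 (adjusted p = 0.0538) and Sgk1 without metestrus-4 or diestrus-1 (adjusted p = 0.0502 to 0.0627). Nfkbia was lost without metestrus libraries 2, 4 or 5 or diestrus libraries 1, 2 or 5 (adjusted p = 0.0615 to 0.109), and Lpin1 without metestrus libraries 4 or 5 or diestrus libraries 2 or 4 (adjusted p = 0.0535 to 0.083). Another 11 members had a lower mean and did not pass, among them 3 whose stages did not overlap. One was Zbtb16, a zinc finger factor that both glucocorticoids and progesterone induce, at 17.9, 13.4, 22.5, 31.3 and 25.4 FPKM at metestrus and 4.299, 9.21, 11.4, 10.4 and 3.96 FPKM at diestrus (log2 change -1.43, adjusted p = 0.161). Klf9, a Krüppel-like factor, was at 53.8 ± 11.2 FPKM at metestrus and 30.5 ± 5.25 FPKM at diestrus (SD, n = 5, log2 change -0.79, adjusted p = 0.054). Errfi1, a feedback inhibitor of the EGF receptor, was at 44.4 ± 8.29 FPKM at metestrus and 23.9 ± 7.76 FPKM at diestrus (log2 change -0.90, adjusted p = 0.135).

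**Figure D2:**
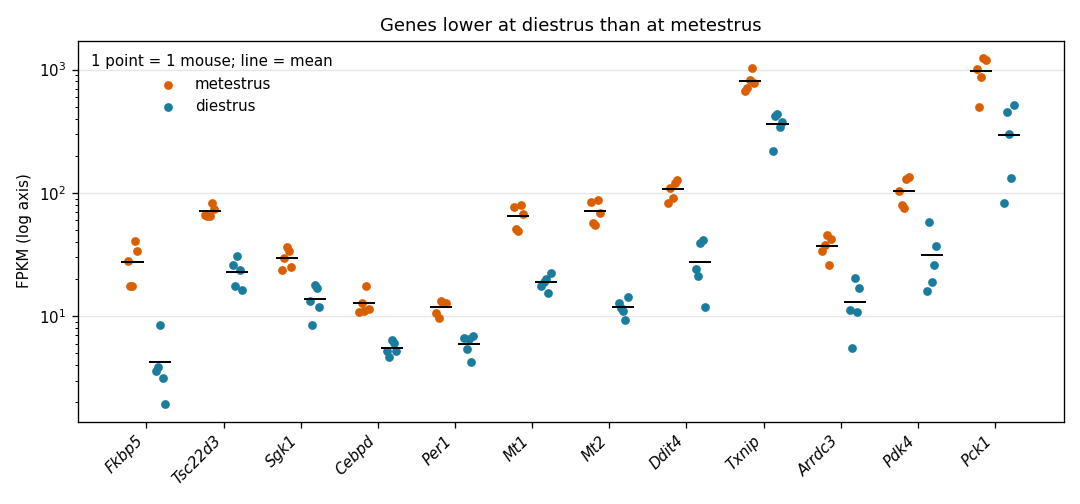
FPKM (log axis) of 12 genes that fell, in the 5 metestrus and 5 diestrus fat pads. Each point is 1 mouse and the line is the mean. Only Pck1 among the 12 has overlapping stages.

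Genes outside the list also fell without overlap between the stages. Slc35e4 and Fam107a were named by a rule that took the largest falls without overlap. Their lack of overlap was thus a condition of the choice. Slc35e4 (ENSMUSG00000048807), of a family of nucleotide sugar transporters, was at 11.8, 7.37, 11.8, 9.76 and 9.51 FPKM at metestrus and 1.98, 3.11, 2.52, 2.07 and 2.43 FPKM at diestrus, and it had the smallest adjusted p of all genes (log2 change -1.68, standard error 0.16, adjusted p = 2.94e-05). Fam107a (chromosome 14, 8296274 to 8318023), a stress-induced actin-bundling protein, was at 4.902, 2.98, 5.504, 7.45 and 6.61 FPKM at metestrus and 0.823, 1.16, 1.58, 0.592 and 0.656 FPKM at diestrus (log2 change -1.704, standard error 0.22, adjusted p = 0.000944). The metestrus and diestrus pads of both genes were apart by a gap wider than the diestrus range. Dusp18, a dual-specificity phosphatase, and Gdpd1, a lysophospholipase D, were named after their values were seen. Dusp18 was at 8.902, 5.43, 8.29, 10.6 and 8.51 FPKM at metestrus and 3.47, 2.897, 3.29, 2.89 and 3.48 FPKM at diestrus (log2 change -1.13, standard error 0.12, adjusted p = 0.000122). Gdpd1 was at 7.53 ± 1.75 FPKM at metestrus and 2.44 ± 0.473 FPKM at diestrus (log2 change -1.29, adjusted p = 0.000707). All 4 calls held in each of the 20 fits.

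Promoters were searched for 5 motifs. The glucocorticoid response element was searched as the pair of half-sites GNACA and TGTNC, 3 bases apart, on both strands, in RefSeq promoters of GRCm38.p6 that run from 250 bases before to 50 bases after a start. Of the 173 called genes 129 had a promoter in the table. The motif was in promoters of 7 of 89 genes that fell (7.87%), of 1 of 40 that rose (2.5%) and of 37 of 9743 genes tested (0.38%). Counted by promoter it was in 6.4%, 2.04% and 0.331%, against 0.475% of all 32851 promoters. The 7 genes that fell are shown because they pair the motif with a fall, with the 13 matched bases in capitals and 25 bases on either side.
Fam107a, chr14:8309860-8309922, strand -: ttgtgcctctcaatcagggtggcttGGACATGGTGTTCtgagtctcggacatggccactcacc
Map3k6, chr4:133240612-133240674, strand +: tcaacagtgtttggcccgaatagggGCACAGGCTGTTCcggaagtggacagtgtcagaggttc
Mt1, chr8:94178970-94179032, strand +: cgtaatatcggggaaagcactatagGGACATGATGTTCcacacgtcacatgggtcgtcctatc
Sgk1, chr10:21993677-21993739, strand +: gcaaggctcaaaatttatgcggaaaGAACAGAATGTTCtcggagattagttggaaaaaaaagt
Slc10a6, chr5:103629529-103629591, strand -: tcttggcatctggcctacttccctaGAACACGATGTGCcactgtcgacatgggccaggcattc
Tinagl1, chr4:130174912-130174974, strand -: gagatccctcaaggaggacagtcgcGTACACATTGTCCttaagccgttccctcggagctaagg
Txnip, chr3:96557760-96557822, strand +: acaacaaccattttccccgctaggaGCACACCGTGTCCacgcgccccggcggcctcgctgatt
The letters of 3 other motifs were searched in the same promoters, on both strands. The sterol response element TCACNCCAC was in 0.0% of promoters of genes that rose, against 1.14% of those tested. The FoxO site GTAAACA was in 1.6% of promoters of genes that fell, against 2.56% of those tested. The E-box CACGTG was in 11.2% of promoters of genes that fell and 6.12% of those that rose, against 9.8% of those tested. The metal response element is given with the metallothioneins. The 1 gene that rose with the glucocorticoid motif was the desaturase Scd3. A match is a description of letters and not of binding, and it does not tell which steroid receptor would bind. Its absence says only that these letters are not in the window. Map3k6, a kinase of the stress-activated cascade, Slc10a6, a carrier of sulphated steroids, and Tinagl1, a secreted matrix protein, were named after their values were seen. Slc10a6 was at 5.17, 7.17, 6.62, 6.83 and 6.37 FPKM at metestrus and 3.097, 1.905, 3.398, 2.27 and 2.04 FPKM at diestrus (log2 change -1.08, standard error 0.18, adjusted p = 0.00694), which held in all 20 fits. Map3k6 was at 10.997 ± 2.38 FPKM at metestrus and 3.98 ± 0.877 FPKM at diestrus (log2 change -1.26, adjusted p = 0.0144), a call lost without metestrus-4 or diestrus-1 (adjusted p = 0.0519 to 0.0613). Tinagl1 was at 22.6 ± 5.46 FPKM at metestrus and 10.5 ± 2.72 FPKM at diestrus (log2 change -1.04, adjusted p = 0.0205), a call lost without metestrus libraries 4 or 5 or diestrus libraries 1 or 4 (adjusted p = 0.0632 to 0.0847).

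The metallothioneins Mt1 and Mt2, small proteins that bind zinc and copper and are induced by both metals and glucocorticoids, were lower in every diestrus pad than in any metestrus pad. Mt1 (chromosome 8, 94179082 to 94180327) was at 76.3, 50.6, 49.5, 80.4 and 67.5 FPKM at metestrus and 17.6, 18.8, 19.9, 15.5 and 22.5 FPKM at diestrus (log2 change -1.71, standard error 0.25, adjusted p = 0.00331). Mt2 (chromosome 8, 94172664 to 94173568), its neighbour on the chromosome, was at 84.2, 57.04, 55.2, 88.1 and 68.6 FPKM at metestrus and 12.7, 11.6, 11.1, 9.28 and 14.3 FPKM at diestrus (log2 change -2.47, standard error 0.40, adjusted p = 0.00694). In both genes the lowest metestrus pad was more than 2 times the highest diestrus pad. The other 3 tested genes of the list of metallothioneins and zinc transporters did not pass, and its median change was -0.18. The metal response element, searched as TGCACNC or TGCGCNC on both strands, occurred 3 times in the promoter of Mt1 and 4 times in that of Mt2. At least 3 matches were in 3.21% of the promoters of genes tested and at least 1 in 35.2%. The sequence before the start of Mt2 is shown with its 3 upstream matches in capitals.
Mt2, chr8:94172390-94172617, strand +: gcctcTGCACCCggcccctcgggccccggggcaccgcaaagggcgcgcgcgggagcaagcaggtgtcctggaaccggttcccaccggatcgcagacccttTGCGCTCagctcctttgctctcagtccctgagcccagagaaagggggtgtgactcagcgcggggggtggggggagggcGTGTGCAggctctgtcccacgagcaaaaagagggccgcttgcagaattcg

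Of 24 tested genes that FoxO factors and fasting induce 6 fell, 0 rose and 18 did not pass, with a median change of -0.49. Pdk4 and Ddit4 are in both this list and the glucocorticoid list, and the other 4 were Txnip, Arrdc3, Foxo1 and Foxo3. Txnip (chromosome 3, 96557957 to 96561883), an arrestin-like protein that restrains glucose uptake, was at 667, 711, 822, 1027 and 782 FPKM at metestrus and 219, 423, 439.6, 339 and 379 FPKM at diestrus (log2 change -1.18, standard error 0.21, adjusted p = 0.0104). Arrdc3, an arrestin-domain protein that acts on beta-adrenergic receptors, was at 33.7, 37.98, 45.7, 26.03 and 42.2 FPKM at metestrus and 11.3, 5.57, 20.3, 10.8 and 16.96 FPKM at diestrus (log2 change -1.53, standard error 0.27, adjusted p = 0.0104). Ddit4 (REDD1), an inhibitor of mTORC1, was at 82.5, 109, 91.3, 121 and 128 FPKM at metestrus and 24.2, 21.1, 39.3, 41.7 and 11.8 FPKM at diestrus (log2 change -2.02, standard error 0.36, adjusted p = 0.012). These 3 genes had no overlap between the stages and held in all 20 fits. Arrdc2, another arrestin-domain gene named after its values were seen, was at 5.37 ± 2.31 FPKM at metestrus and 2.11 ± 0.225 FPKM at diestrus (log2 change -0.97, adjusted p = 0.0252), a call lost without metestrus libraries 4 or 5 or diestrus libraries 1, 2 or 4 (adjusted p = 0.0546 to 0.088). Depp1, a small FoxO-induced protein of peroxisomes and mitochondria, was at 72.8, 53.9, 118, 100.1 and 80.04 FPKM at metestrus and 25.8, 30.7, 30.1, 38.2 and 15.04 FPKM at diestrus (log2 change -1.58, standard error 0.34, adjusted p = 0.0293). It lost its call without metestrus libraries 1, 3, 4 or 5 or diestrus libraries 1, 2 or 5 (adjusted p = 0.0506 to 0.101). Leaving out metestrus libraries 4 or 5, or diestrus libraries 1, 2 or 4, left 4 members that fell, and 1 member rose without diestrus-3.

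Components of insulin signalling moved in both directions. Of 20 tested genes Pik3r1 rose and Foxo1 and Ddit4 fell, and the median change was -0.14. Foxo1, the FoxO factor that insulin restrains, was at 16.2, 12.6, 16.05, 15.1 and 19.1 FPKM at metestrus and 8.23, 10.5, 10.2, 9.71 and 8.34 FPKM at diestrus (log2 change -0.69, standard error 0.16, adjusted p = 0.041), and Foxo3 at 9.69 ± 1.16 FPKM at metestrus and 5.88 ± 0.713 FPKM at diestrus (log2 change -0.63, adjusted p = 0.024). Pik3r1, the regulatory subunit of phosphatidylinositol 3-kinase, was at 18.9, 28.3, 28.6, 19.1 and 19.3 FPKM at metestrus and 34.4, 55.3, 42.4, 40.5 and 33.1 FPKM at diestrus (log2 change 0.82, standard error 0.19, adjusted p = 0.0394). No pad of one stage reached those of the other in these 3 genes, but the changes were below 1 on the log2 scale. Foxo3 was lost without metestrus libraries 4 or 5 or diestrus libraries 1, 2, 4 or 5 (adjusted p = 0.0502 to 0.0951). Foxo1 and Pik3r1 were each lost without 9 of the 20 libraries. For Foxo1 these were estrus-5, all of metestrus but metestrus-2 and all of diestrus but diestrus-3 (adjusted p = 0.0535 to 0.124). For Pik3r1 they were estrus libraries 4 and 5, metestrus libraries 1, 4 and 5 and diestrus libraries 1 to 4 (adjusted p = 0.0501 to 0.13). All 3 calls were lost after rescaling to an equal total. Irs3, the adipocyte insulin receptor substrate of rodents, was named after its values were seen and was at 3.801, 4.95, 6.55, 3.702 and 4.21 FPKM at metestrus and 12.2, 15.9, 7.11, 9.39 and 10.3 FPKM at diestrus (log2 change 1.07, standard error 0.24, adjusted p = 0.0379). It was lost without estrus-4, metestrus libraries 1, 4 or 5 or diestrus libraries 1, 2, 4 or 5 (adjusted p = 0.0518 to 0.123). Irs2, the substrate that FoxO induces, was at 10.6, 8.27, 11.1, 11.8 and 14.1 FPKM at metestrus and 3.104, 6.23, 6.69, 3.31 and 8.695 FPKM at diestrus, with overlap, and did not pass (log2 change -0.94, 95% interval -1.47 to -0.42, adjusted p = 0.0715). It passed without estrus-1 or diestrus-5 (adjusted p = 0.0498 and 0.0483). Insr, the receptor, did not pass either (log2 change -0.22, 95% interval -0.50 to 0.06, adjusted p = 0.607).

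The gate from pyruvate to acetyl-CoA changed at several of its genes. Pdk4 (ENSMUSG00000019577), a kinase that shuts pyruvate dehydrogenase and that fasting and glucocorticoids induce, was at 103, 79.4, 75.3, 129 and 135 FPKM at metestrus and 15.9, 57.7, 19.1, 26.2 and 37.3 FPKM at diestrus (log2 change -1.82, standard error 0.30, adjusted p = 0.00694). Its lowest metestrus pad lay above its highest diestrus pad, diestrus-2, and the call held in all 20 fits. Pdk2, the more general kinase of the same enzyme, was at 38.4, 21.8, 34.5, 42.1 and 42.1 FPKM at metestrus and 14.7, 23.7, 17.2, 19.1 and 24.8 FPKM at diestrus (log2 change -0.80, standard error 0.18, adjusted p = 0.0295), with metestrus-2 inside the diestrus range. Pdha1, the E1-alpha subunit that these kinases phosphorylate, was named after its values were seen and moved the other way, at 225, 162, 140.7, 155 and 130.5 FPKM at metestrus and 299, 287, 244, 266 and 327 FPKM at diestrus (log2 change 0.82, standard error 0.18, adjusted p = 0.0302). Pck1, which makes glycerol-3-phosphate for the re-esterification of fatty acids, was at 1008, 501, 873, 1242 and 1205 FPKM at metestrus and 83.3, 449.5, 301, 132 and 513 FPKM at diestrus (log2 change -1.94, standard error 0.43, adjusted p = 0.0306), and its metestrus-2 pad lay below diestrus-5. The calls of Pdk2 and Pck1 were lost without metestrus libraries 1, 4 or 5 or diestrus libraries 1 or 4 (adjusted p = 0.0721 to 0.112 and 0.0675 to 0.109). A fit to the 10 pads lost them too (adjusted p = 0.102 and 0.107). That of Pdha1 was lost without metestrus libraries 3, 4 or 5 or any diestrus library but diestrus-3 (adjusted p = 0.0608 to 0.0999). In the list of glyceroneogenesis and glucose entry 1 of 19 genes rose (Pgd), 3 fell (Pck1, Pdk4 and Pdk2) and 15 did not pass, with a median change of 0.47.

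The list of fatty acid and triglyceride synthesis had 24 tested genes. Of these Acaca, Elovl6 and Me1 rose, Lpin1 fell and 20 did not pass. A higher mean log2 value was seen in 21, and the median change was 0.66. The rises were 12.5% of the tested members and the fall 4.17%, against 0.4% and 0.836% of all genes tested. Acaca (chromosome 11, 84129672 to 84401651), acetyl-CoA carboxylase 1, was at 109, 68.9, 67.1, 54.6 and 43.7 FPKM at metestrus and 274, 168, 139.9, 212 and 169 FPKM at diestrus (log2 change 1.503, standard error 0.34, adjusted p = 0.0339). Elovl6, which elongates palmitate, was at 77.5, 61.3, 35.3, 22.9 and 20.4 FPKM at metestrus and 254, 116, 142, 239 and 150.2 FPKM at diestrus (log2 change 2.15, standard error 0.46, adjusted p = 0.0268). Me1, malic enzyme, which supplies NADPH, was at 359, 216, 202, 183 and 144 FPKM at metestrus and 1636, 620.5, 517, 908 and 716 FPKM at diestrus (log2 change 1.93, standard error 0.46, adjusted p = 0.0474). In these 3 genes the lowest metestrus pad was metestrus-5, the highest was metestrus-1, and the highest diestrus pad was diestrus-1. Acly, which makes cytosolic acetyl-CoA from citrate, was at 273, 202, 179, 119 and 80.3 FPKM at metestrus and 1349.5, 507, 421, 1082 and 442 FPKM at diestrus, without overlap, and did not pass (log2 change 2.09, standard error 0.55, adjusted p = 0.0702). Fasn, the fatty acid synthase, overlapped by a single metestrus pad, at 719.5, 395, 401, 316 and 269 FPKM at metestrus and 1230.4, 824, 872, 1182 and 705 FPKM at diestrus (log2 change 1.25, adjusted p = 0.0914). Srebf1, the gene of SREBP-1, was at 25.1, 23.2, 27.4, 22.4 and 18.6 FPKM at metestrus and 42.5, 33.8, 30.3, 42.6 and 41.6 FPKM at diestrus, without overlap (log2 change 0.68, adjusted p = 0.0828). Lpin1, which turns phosphatidate into diglyceride and is also a glucocorticoid target, went against the list, at 47.3, 24.9, 41.1, 56.5 and 51.4 FPKM at metestrus and 30.1, 16.03, 22.2, 21.99 and 21.5 FPKM at diestrus (log2 change -0.93, standard error 0.19, adjusted p = 0.0202), with metestrus-2 and diestrus-1 overlapping.

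**Figure D3:**
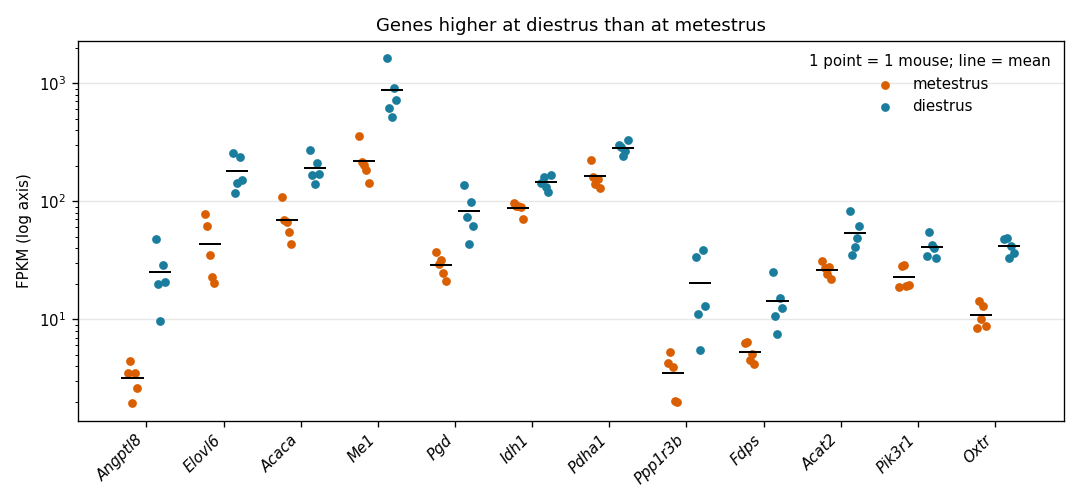
FPKM (log axis) of 12 genes that rose, in the 5 metestrus and 5 diestrus fat pads. Each point is 1 mouse and the line is the mean. The stages do not overlap in any of the 12, and the diestrus pads of Ppp1r3b, Me1 and Angptl8 spread over a wide range.

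The calls of the lipogenic genes depended on a few libraries. In that list 0 genes rose when metestrus libraries 4 or 5 or diestrus libraries 1 or 4 was left out. Leaving out metestrus-3 or diestrus libraries 2 or 5 gave 1, and leaving out proestrus-5 gave 6. Elovl6 was lost without the first 4 of these libraries (adjusted p = 0.0745 to 0.101), and Acaca also without metestrus-3 or diestrus libraries 2 or 5 (adjusted p = 0.0548 to 0.112). Me1 was lost without 12 libraries, which were estrus libraries 2 to 5, metestrus libraries 2 to 5 and all of diestrus but diestrus-3 (adjusted p = 0.0519 to 0.15). Without the filter all 35841 genes are tested, and the 3 were lost (adjusted p = 0.0771, 0.0962 and 0.114). In a fit to the metestrus and diestrus pads alone they held (adjusted p = 0.0344, 0.0292 and 0.0294), among 5 members that rose. Other genes that supply NADPH went the same way. Idh1 (chromosome 1, 65158616 to 65186500), the cytosolic NADP-dependent isocitrate dehydrogenase, was named after its values were seen and was at 96.04, 91.5, 90.97, 89.1 and 70.9 FPKM at metestrus and 143, 161, 133, 120.2 and 166 FPKM at diestrus (log2 change 0.71, standard error 0.12, adjusted p = 0.00694). Its pads lay close together within each stage and the call held in all 20 fits. Pgd, of the pentose phosphate pathway, was at 37.05, 29.3, 31.8, 24.6 and 21.3 FPKM at metestrus and 137, 74.01, 43.3, 98.99 and 61.2 FPKM at diestrus (log2 change 1.41, standard error 0.33, adjusted p = 0.0439). Its call was lost without 13 libraries, which were proestrus-1, estrus libraries 2, 4 and 5, all of metestrus and all of diestrus but diestrus-3 (adjusted p = 0.0501 to 0.14). G6pdx, the first enzyme of that pathway, and Tkt, transketolase, had no overlap and did not pass. G6pdx was at 49.4 ± 7.297 FPKM at metestrus and 96.01 ± 28.6 FPKM at diestrus (log2 change 0.91, adjusted p = 0.14) and Tkt at 165 ± 61.7 FPKM at metestrus and 349 ± 59.1 FPKM at diestrus (log2 change 1.13, adjusted p = 0.101).

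Angptl8, an insulin-induced protein that directs the inhibition of lipoprotein lipase to tissues other than white fat, was the largest rise among the called genes. It was at 3.49, 4.44, 1.94, 3.501 and 2.603 FPKM at metestrus and 48.1, 19.8, 9.61, 28.7 and 20.6 FPKM at diestrus. Every diestrus pad was more than 2 times the highest metestrus pad (log2 change 2.51, standard error 0.32, adjusted p = 0.000723), and the highest adjusted p in the 20 fits was 0.00385. The other 8 tested genes of lipoprotein lipase and its regulators did not pass. Lpl, the lipase, was at 712, 343, 658, 622 and 494 FPKM at metestrus and 584, 865, 496, 351 and 710.4 FPKM at diestrus (log2 change 0.07, 95% interval -0.52 to 0.65, adjusted p = 0.981). Angptl4, a fasting- and glucocorticoid-induced inhibitor of the same lipase, was at 68.7, 49.8, 70.5, 87.3 and 76.2 FPKM at metestrus and 16.8, 98.8, 30.2, 20.95 and 48.3 FPKM at diestrus (log2 change -0.97, adjusted p = 0.229), with diestrus-2 above all the metestrus pads.

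In glycogen metabolism Ppp1r3b, which brings protein phosphatase 1 to glycogen and activates its synthesis, rose and the other 14 tested genes did not pass. It was at 4.26, 5.299, 3.92, 2.03 and 1.99 FPKM at metestrus and 34.003, 10.99, 5.48, 38.8 and 13.02 FPKM at diestrus (log2 change 2.001, standard error 0.41, adjusted p = 0.0214). The diestrus pads spread widely, with diestrus-3 just above the highest metestrus pad. The call was lost without metestrus libraries 4 or 5 or diestrus libraries 1 or 4 (adjusted p = 0.0632 to 0.0853). It was also lost when low genes were not filtered out (adjusted p = 0.0592) and in the fit to the 10 pads (adjusted p = 0.0884). Pygl, a glycogen phosphorylase, had no overlap and did not pass, at 35.5 ± 11.6 FPKM at metestrus and 74.7 ± 20.1 FPKM at diestrus (log2 change 1.07, adjusted p = 0.127). Gys2, a glycogen synthase, overlapped by 1 pad of each stage, at 14.3, 5.86, 5.23, 4.79 and 5.85 FPKM at metestrus and 26.6, 20.6, 8.11, 18.03 and 15.7 FPKM at diestrus (log2 change 1.21, adjusted p = 0.0837).

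Of 24 tested genes of cholesterol synthesis and uptake 4 rose (Fdps, Nsdhl, Acat2 and Lss), 0 fell and 20 did not pass, 22 had a higher mean log2 value, and the median change was 0.67. The rises were 16.7% of the tested members, against 0.4% of all genes tested. Fdps, which makes farnesyl diphosphate, was at 6.28, 6.44, 4.504, 5.05 and 4.15 FPKM at metestrus and 25.3, 10.6, 7.47, 15.04 and 12.6 FPKM at diestrus (log2 change 1.18, standard error 0.24, adjusted p = 0.0202). Acat2, the cytosolic thiolase that starts the pathway, was at 31.1, 26.98, 24.1, 27.9 and 21.8 FPKM at metestrus and 82.7, 35.2, 40.8, 49.2 and 61.8 FPKM at diestrus (log2 change 0.95, standard error 0.20, adjusted p = 0.0268). Nsdhl, a sterol dehydrogenase, was at 15.6, 12.97, 10.9, 10.3 and 9.23 FPKM at metestrus and 34.3, 20.7, 15.7, 24.6 and 21.7 FPKM at diestrus (log2 change 0.91, standard error 0.19, adjusted p = 0.0262). Lss, lanosterol synthase, was at 2.06 ± 0.297 FPKM at metestrus and 4.498 ± 2.17 FPKM at diestrus (log2 change 0.78, adjusted p = 0.0475). In each of the 4 the highest pad was diestrus-1, and no pads of the stages overlapped. As with the lipogenic genes, 0 members rose when metestrus libraries 4 or 5 or diestrus libraries 1 or 4 was left out. Leaving out metestrus-3 or diestrus-5 gave 2, and leaving out diestrus-3 gave 10. Fdps and Nsdhl were lost without the first 4 of these (adjusted p = 0.0515 to 0.0681 and 0.0717 to 0.0967). Acat2 was lost also without metestrus-3 or diestrus-5 (adjusted p = 0.0525 to 0.0893), and Lss held only where estrus-1, proestrus-5 or diestrus-3 was left out (adjusted p = 0.0503 to 0.13 otherwise). All 4 calls were lost in the fit to the 10 pads (adjusted p = 0.0662 to 0.134) and when low genes were not filtered out (adjusted p = 0.0553 to 0.113). Npc1, which exports cholesterol from lysosomes, was named after its values were seen and fell, at 4.51, 4.102, 4.17, 5.49 and 6.28 FPKM at metestrus and 2.37, 2.71, 3.61, 2.71 and 2.49 FPKM at diestrus (log2 change -0.64, standard error 0.13, adjusted p = 0.0214), a call lost without metestrus libraries 4 or 5 or any diestrus library but diestrus-3 (adjusted p = 0.0508 to 0.0871).

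Of 16 tested genes of lipolysis and the lipid droplet 2 fell, 1 of them Cidec, 0 rose and 14 did not pass. Adrb3, the main beta-adrenergic receptor of mouse adipocytes, was at 18.6, 20.2, 55.4, 19.1 and 16.5 FPKM at metestrus and 46.3, 72.9, 40.5, 43.3 and 64.4 FPKM at diestrus, with metestrus-3 among the diestrus pads, and did not pass (log2 change 1.14, 95% interval 0.33 to 1.94, adjusted p = 0.174). Mc5r, a melanocortin receptor of adipocytes that raises lipolysis in mice, was named after its values were seen. It was at 3.25, 2.48, 3.11, 3.403 and 3.67 FPKM at metestrus and 1.26, 0.917, 1.08, 1.46 and 1.11 FPKM at diestrus (log2 change -0.95, standard error 0.16, adjusted p = 0.00694) and held in all 20 fits. Cidec, which fuses lipid droplets, was at 999, 609, 805, 1211 and 957 FPKM at metestrus and 337, 436, 591, 279 and 688 FPKM at diestrus (log2 change -1.02, standard error 0.22, adjusted p = 0.0282), with diestrus-5 above metestrus-2. It was lost without metestrus libraries 1, 4 or 5 or diestrus libraries 1, 2 or 4 (adjusted p = 0.057 to 0.109). It was also lost when low genes were not filtered out (adjusted p = 0.0886) and in the fit to the 10 pads (adjusted p = 0.119). The lipases Pnpla2 and Lipe did not pass (log2 change -0.21, 95% interval -0.64 to 0.22, adjusted p = 0.842, and log2 change -0.13, 95% interval -0.56 to 0.30, adjusted p = 0.943).

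Fatty acid oxidation showed 2 falls among 23 tested genes, Ppara and Acot1, with a median change of -0.09. The falls were 8.7% of the list, against 0.836% of all genes tested. Ppara, the nuclear receptor that turns on oxidation in fasting, was at 7.88, 3.04, 5.63, 6.9995 and 7.45 FPKM at metestrus and 1.498, 1.95, 2.8002, 1.68 and 3.76 FPKM at diestrus (log2 change -1.098, standard error 0.22, adjusted p = 0.0202), with metestrus-2 inside the diestrus range. Acot1, a thioesterase that PPAR-alpha induces, was at 4.51, 6.34, 2.63, 7.401 and 5.58 FPKM at metestrus and 1.66, 2.498, 2.49, 2.204 and 2.27 FPKM at diestrus (log2 change -0.91, standard error 0.19, adjusted p = 0.0214). Both were lost without metestrus libraries 4 or 5 or diestrus libraries 1 or 4 (adjusted p = 0.0621 to 0.0732 and 0.0596 to 0.0880). A fit to the 10 pads lost them too (adjusted p = 0.0691 for both). Vnn1, a pantetheinase that PPAR-alpha induces in mouse liver, was named after its values were seen. It was at 4.22, 4.403, 6.48, 7.31 and 8.302 FPKM at metestrus and 0.791, 3.06, 1.87, 1.05 and 2.63 FPKM at diestrus (log2 change -1.34, standard error 0.25, adjusted p = 0.013), a call lost without metestrus libraries 4 or 5 (adjusted p = 0.0511 to 0.055). Among 15 tested genes of thermogenesis Ppara alone fell. Ucp1, the uncoupling protein of brown and beige adipocytes, varied from pad to pad, at 38.6, 8.57, 0.0264, 1.88 and 14.8 FPKM at metestrus and 1.19, 7.77, 0.668, 7.35 and 5.34 FPKM at diestrus (log2 change -0.68, 95% interval -2.46 to 1.103, adjusted p = 0.915).

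In the clock, Per1 fell and the other 14 tested core genes did not pass. Per1, which glucocorticoids also induce, was at 10.6, 9.76, 13.3, 12.7 and 12.8 FPKM at metestrus and 6.603, 5.45, 6.58, 4.24 and 6.97 FPKM at diestrus (log2 change -0.89, standard error 0.21, adjusted p = 0.0477), without overlap. Its call was lost without 13 libraries, among them all of estrus but estrus-1, all of metestrus but metestrus-2 and all of diestrus but diestrus-3, besides proestrus-4 (adjusted p = 0.052 to 0.141). Per2 was at 5.62, 9.196, 13.2, 10.8 and 8.18 FPKM at metestrus and 1.47, 1.58, 7.94, 1.77 and 4.17 FPKM at diestrus (log2 change -1.398, 95% interval -2.33 to -0.46, adjusted p = 0.141). Arntl (Bmal1), whose peak opposes that of the Per genes, was at 0.389, 1.19, 0.389, 0.276 and 0.814 FPKM at metestrus and 1.48, 2.599, 0.984, 2.84 and 0.431 FPKM at diestrus (log2 change 0.66, 95% interval 0.18 to 1.14, adjusted p = 0.182). Of 13 tested clock output genes 3 fell, Usp2, Wee1 and Noct, 0 rose, and the median change was -0.51. Usp2, a ubiquitin protease, was at 7.11, 4.06, 9.56, 7.84 and 5.99 FPKM at metestrus and 1.22, 1.29, 2.95, 0.8597 and 2.53 FPKM at diestrus (log2 change -1.53, standard error 0.25, adjusted p = 0.00694) and held in all 20 fits. Noct, nocturnin, was at 5.35, 2.71, 2.74, 2.72 and 2.96 FPKM at metestrus and 1.37, 1.09, 1.504, 0.726 and 1.97 FPKM at diestrus (log2 change -0.87, standard error 0.19, adjusted p = 0.0268), with metestrus-1 apart from the other metestrus pads. It was lost without metestrus libraries 1, 4 or 5 or diestrus libraries 1, 2 or 4 (adjusted p = 0.062 to 0.0792). Wee1, a kinase that holds back mitosis, was at 9.13 ± 1.13 FPKM at metestrus and 3.95 ± 2.19 FPKM at diestrus (log2 change -1.13, adjusted p = 0.0483) and held only without proestrus libraries 2, 3 or 5, estrus-1 or diestrus-3 (adjusted p = 0.052 to 0.158 otherwise). Dbp, a direct target of the clock, spread widely at diestrus, at 16.6, 15.3, 24.96, 22.1 and 14.7 FPKM at metestrus and 16.1, 3.49, 26.8, 2.89 and 31.5 FPKM at diestrus (log2 change -0.66, adjusted p = 0.669).

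Among 22 tested receptors of steroid and peptide hormones Oxtr rose, 0 fell and 21 did not pass. This 1 rise was 4.55% of the list, against 0.4% of all genes tested. Oxtr (chromosome 6, 112473683 to 112489943), the oxytocin receptor, which marks myoepithelial cells of the mammary gland and is also made by adipocytes, was at 8.36, 14.2, 10.01, 12.9 and 8.79 FPKM at metestrus and 47.97, 48.7, 33.1, 41.7 and 36.4 FPKM at diestrus (log2 change 1.85, standard error 0.31, adjusted p = 0.00694). The lowest diestrus pad was more than 2 times the highest metestrus pad, and the call held in all 20 fits. It was the 1 call among 13 tested genes of basal mammary epithelium, which had a median change of -0.32. The other 12 did not pass, among them the keratin Krt14, at 21.6, 38.04, 13.3, 35.8 and 26.6 FPKM at metestrus and 15.4, 15.2, 14.9, 17.7 and 17.8 FPKM at diestrus (log2 change -0.62, adjusted p = 0.395). Of 18 tested luminal genes 0 were called (limma, 3 at an unadjusted p under 0.05, against 12.1% of all genes tested). Esr1, Pgr, Nr3c2 and Prlr, the receptors of estrogen, progesterone, mineralocorticoids and prolactin, did not pass. Their intervals on the log2 scale were wide for Esr1 (log2 change -0.10, 95% interval -0.59 to 0.39, adjusted p = 0.969), Pgr (log2 change 0.37, 95% interval -0.16 to 0.89, adjusted p = 0.675) and Prlr (log2 change 0.04, 95% interval -0.44 to 0.51, adjusted p = 0.985) and narrower for Nr3c2 (log2 change 0.14, 95% interval -0.11 to 0.39, adjusted p = 0.781). Pgr was at 4.78, 8.04, 4.35, 5.58 and 4.501 FPKM at metestrus and 6.26, 5.19, 7.84, 9.43 and 7.71 FPKM at diestrus.

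In the lists of progesterone-responsive and estrogen-responsive genes Wnt4 and Cited1 fell, besides Fkbp5, which progesterone also induces. Called genes outside these lists were not sorted by their response to sex hormones. Wnt4, a paracrine signal that progesterone induces in the mammary gland, was at 7.11, 7.13, 4.42, 10.2 and 6.57 FPKM at metestrus and 3.18, 3.79, 2.24, 4.74 and 4.197 FPKM at diestrus (log2 change -0.79, standard error 0.18, adjusted p = 0.0438), with metestrus-3 below diestrus-4. It was lost without 13 libraries, which were proestrus libraries 3 and 4, estrus libraries 2, 4 and 5, all of metestrus but metestrus-3 and all of diestrus but diestrus-4 (adjusted p = 0.0504 to 0.141). Tnfsf11 (RANKL), the other such signal, was at 0.516, 1.73, 0.0386, 0 and 1.43 FPKM at metestrus and 1.28, 0.398, 2.69, 2.38 and 0 FPKM at diestrus (log2 change 0.39, adjusted p = 0.899). Of 14 tested progesterone-responsive and mammary genes 2 fell and 12 did not pass. Cited1, a co-regulator of the estrogen receptor, was at 12.3, 16.4, 5.896, 20.8 and 17.9 FPKM at metestrus and 5.06, 2.52, 2.77, 5.37 and 4.996 FPKM at diestrus (log2 change -1.55, standard error 0.27, adjusted p = 0.00905). It was the 1 call among 15 tested estrogen-responsive genes, and it held in all 20 fits but not in the fit to the 10 pads (adjusted p = 0.0515). The luminal mammary markers summed lowest in metestrus-3, which was also the metestrus pad with the lowest Cited1 and Wnt4, and the part of mammary tissue in these results was not tested. Of 11 tested steroid-converting enzymes Hsd17b11 fell, at 23.97, 21.5, 21.96, 26.9 and 26.8 FPKM at metestrus and 14.9, 19.2, 19.4, 15.6 and 19.6 FPKM at diestrus (log2 change -0.43, standard error 0.10, adjusted p = 0.0483). Its call was lost without 14 libraries, which were all but proestrus libraries 2 and 5, estrus-1, metestrus libraries 2 and 3 and diestrus-3 (adjusted p = 0.0514 to 0.158).

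Some genes with known roles in immune cells fell. Irf4, a transcription factor of lymphocytes and macrophages that fasting also induces in adipocytes, was at 27.6, 28.99, 30.4, 67.2 and 57.04 FPKM at metestrus and 4.13, 6.15, 19.95, 7.31 and 9.62 FPKM at diestrus (log2 change -2.12, standard error 0.46, adjusted p = 0.0289), without overlap. It was lost without metestrus libraries 4 or 5 or any diestrus library but diestrus-3 (adjusted p = 0.0521 to 0.109). Irf4 was counted in the list of interferon-stimulated genes, where the other 18 of 19 tested members did not pass. Its response to interferon was not tested. Metestrus-4 held both the highest Irf4 and the lowest lymphocyte markers of the 10 pads, at 3.05 FPKM. The pad next in Irf4, metestrus-5, held 261.9 FPKM of these markers, and metestrus-3, with Irf4 at 30.4 FPKM, held 3.21 FPKM. The part of lymphocytes in Irf4 was not tested. Ms4a4a, a surface protein of macrophages, was at 8.78, 11.5, 10.6, 16.6 and 11.7 FPKM at metestrus and 2.88, 3.58, 6.87, 2.24 and 2.49 FPKM at diestrus (log2 change -1.53, standard error 0.30, adjusted p = 0.0162). Mertk, a macrophage receptor that takes up dying cells and is induced by glucocorticoids, was at 9.11, 9.05, 11.8, 13.5 and 11.98 FPKM at metestrus and 4.45, 3.49, 7.47, 4.08 and 4.198 FPKM at diestrus (log2 change -1.097, standard error 0.21, adjusted p = 0.015). Mertk was named after its values were seen. The 5 macrophage markers summed to 305.4 to 1003 FPKM at metestrus and 251.4 to 1014 FPKM at diestrus, and 0 were called (limma, 0 at an unadjusted p under 0.05). Ms4a4a was lost without metestrus libraries 4 or 5 or diestrus libraries 1 or 4 (adjusted p = 0.0507 to 0.0656) and Mertk without metestrus libraries 4 or 5 (adjusted p = 0.0518 to 0.0626). Ifngr1, a chain of the interferon-gamma receptor named after its values were seen, was at 45.8, 38.9, 51.5, 46.2 and 46.98 FPKM at metestrus and 25.3, 32.8, 31.1, 30.997 and 25.3 FPKM at diestrus (log2 change -0.64, standard error 0.12, adjusted p = 0.013) and was lost without diestrus-1 (adjusted p = 0.0502).

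Of 22 tested genes of the unfolded protein response and of ATF4 targets Herpud1 and Chac1 fell and 20 did not pass. The falls were 9.09% of the list, against 0.836% of all genes tested. Herpud1, of the degradation of endoplasmic reticulum proteins, was at 33.3, 26.4, 23.999, 30.2 and 28.1 FPKM at metestrus and 15.1, 12.6, 21.5, 13.8 and 16.1 FPKM at diestrus (log2 change -0.82, standard error 0.14, adjusted p = 0.00694). Chac1, which breaks down glutathione, was at 4.74, 4.36, 5.67, 9.96 and 5.41 FPKM at metestrus and 1.28, 1.04, 3.48, 1.06 and 1.84 FPKM at diestrus (log2 change -1.38, standard error 0.25, adjusted p = 0.012). Neither gene overlapped between the stages and both held in all 20 fits. The chaperone Hspa5 and the factor Atf4 did not pass (log2 change -0.01, 95% interval -0.35 to 0.33, adjusted p = 0.996, and log2 change -0.02, 95% interval -0.37 to 0.33, adjusted p = 0.99). Of 15 tested heat shock genes 0 were called (limma, 5 at an unadjusted p under 0.05, against 12.1% of all genes tested). The small heat shock gene Hspb1 had no overlap and did not pass, at 43.7, 32.8, 45.4, 47.6 and 47.2 FPKM at metestrus and 23.9, 28.8, 19.8, 21.7 and 29.7 FPKM at diestrus (log2 change -0.79, adjusted p = 0.0625).

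The other large rises had varied roles. Nabp1, a protein that binds single-stranded DNA, was at 8.68, 10.9, 10.2, 8.74 and 6.89 FPKM at metestrus and 29.04, 22.4, 18.3, 33.4 and 29.97 FPKM at diestrus (log2 change 1.44, standard error 0.25, adjusted p = 0.00886). B3galt2, a galactosyltransferase, was at 12.9, 13.9, 21.1, 10.2 and 11.5 FPKM at metestrus and 33.2, 44.8, 26.4, 29.7 and 38.8 FPKM at diestrus (log2 change 1.27, standard error 0.23, adjusted p = 0.0121). Enpep, aminopeptidase A, which trims angiotensin II, was at 14.1 ± 3.19 FPKM at metestrus and 33.02 ± 10.2 FPKM at diestrus (log2 change 1.16, adjusted p = 0.0373). Slc5a3, which carries myo-inositol, was at 5.35 ± 2.27 FPKM at metestrus and 12.5 ± 2.16 FPKM at diestrus (log2 change 1.14, adjusted p = 0.0344). Scd3, a stearoyl-CoA desaturase, was at 0.0252, 0.0331, 0.0405, 0.8898 and 0.0442 FPKM at metestrus and 2.25, 1.92, 1.02, 1.87 and 1.01 FPKM at diestrus (log2 change 1.13, standard error 0.22, adjusted p = 0.015), where metestrus-4 stood apart from the rest of its stage. Hephl1, a copper-dependent ferroxidase, was at 0.242, 0.559, 0.309, 0.152 and 0.0891 FPKM at metestrus and 7.77, 1.63, 0.688, 3.35 and 1.47 FPKM at diestrus (log2 change 1.41, standard error 0.33, adjusted p = 0.0456), from levels below 1 FPKM. Tlcd2, a membrane protein, was at 4.65 ± 1.34 FPKM at metestrus and 12.4 ± 5.91 FPKM at diestrus (log2 change 1.19, adjusted p = 0.0373). Dusp4 and Ptpn5, phosphatases that act on MAP kinases, were named after their values were seen. Dusp4 was at 7.44, 6.97, 4.34, 7.03 and 7.37 FPKM at metestrus and 14.1, 15.3, 14.5, 20.9 and 12.3 FPKM at diestrus (log2 change 1.104, standard error 0.20, adjusted p = 0.012). Ptpn5 was at 0.143, 0.124, 0.00745, 0.241 and 0.0726 FPKM at metestrus and 0.725, 1.01, 1.22, 1.16 and 1.09 FPKM at diestrus (log2 change 0.87, standard error 0.15, adjusted p = 0.00694). The calls of Nabp1, Dusp4 and Ptpn5 held in all 20 fits. B3galt2 was lost without metestrus-4 (adjusted p = 0.0519) and Scd3 without metestrus-5 or diestrus-1 (adjusted p = 0.053 to 0.0546). Slc5a3, Tlcd2, Enpep and Hephl1 were lost without 7, 7, 8 and 12 libraries, always including metestrus libraries 4 and 5 and all of diestrus but diestrus-3 (adjusted p up to 0.116, 0.13, 0.122 and 0.13). The others were metestrus-1 for Slc5a3, metestrus-3 for Tlcd2, metestrus libraries 1 and 2 for Enpep, and estrus libraries 2 to 5, metestrus-1 and metestrus-3 for Hephl1. Upk3a, an epithelial uroplakin, spread widely at metestrus, at 3.801, 22.99, 4.22, 14.8 and 16.3 FPKM at metestrus and 2.49, 1.29, 2.47, 1.8001 and 1.44 FPKM at diestrus (log2 change -1.95, standard error 0.47, adjusted p = 0.0483). That call was lost without 13 libraries, which were proestrus libraries 1, 4 and 5, estrus libraries 1 to 3, all of metestrus but metestrus libraries 1 and 3 and all of diestrus but diestrus-3 (adjusted p = 0.0501 to 0.15).

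Of the 15 tested genes in the list of mitochondrially encoded genes mt-Rnr1, the 12S ribosomal RNA, fell and 14 did not pass. It was at 867, 593, 732, 821 and 903 FPKM at metestrus and 301, 284, 479, 450.3 and 397 FPKM at diestrus (log2 change -1.05, standard error 0.21, adjusted p = 0.0202). The 16S RNA, mt-Rnr2, was at 759, 629, 714, 668 and 872 FPKM at metestrus and 312, 269.9, 486, 673 and 345 FPKM at diestrus (log2 change -0.88, adjusted p = 0.0525). Ribosomal RNA is captured by poly(A) selection in part only, so these levels do not measure its amount. The call was lost without metestrus libraries 4 or 5 or diestrus libraries 1 or 2 (adjusted p = 0.0535 to 0.0708). Outside the list, the mitochondrial tRNA gene mt-Ty, named after its values were seen, also fell. It was at 162, 113, 172, 158 and 204 FPKM at metestrus and 46.1, 59.3, 103, 136 and 61.1 FPKM at diestrus (log2 change -1.08, standard error 0.25, adjusted p = 0.0439), with overlap. That call did not hold without proestrus libraries 3 or 4, estrus libraries 2, 4 or 5, metestrus libraries 1, 3, 4 or 5, or diestrus libraries 1, 2 or 5 (adjusted p = 0.0504 to 0.139). 

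Of 20 tested adipocyte identity genes 2 fell, Cidec and Pck1, and 18 did not pass. That is 10% of the list, against 0.836% of all genes tested. Adipoq, the gene of adiponectin, was at 1924, 1179, 1924, 2082 and 1633 FPKM at metestrus and 1041, 1735, 1308, 1103 and 1867 FPKM at diestrus (log2 change -0.32, 95% interval -0.73 to 0.09, adjusted p = 0.598). Lep, of leptin, was at 56.3, 53.7, 112, 44.4 and 37.96 FPKM at metestrus and 144, 193, 60.7, 54.95 and 123 FPKM at diestrus (log2 change 0.85, 95% interval -0.24 to 1.95, adjusted p = 0.599). Pparg, the master factor of adipocytes, was at 45.3 ± 9.48 FPKM at metestrus and 52.5 ± 10.5 FPKM at diestrus (log2 change 0.21, 95% interval -0.18 to 0.60, adjusted p = 0.797). The lists of adipokines and secreted factors (25 tested), immediate early genes (20), collagens and matrix (23), cell cycle (20) and the nuclear respiratory chain (23) had 0 genes called (limma, 5, 5, 1, 2 and 3 at an unadjusted p under 0.05). Over all genes tested 12.1% reached that unadjusted p. Among the secreted factors Nampt had no overlap and did not pass, at 47.7 ± 6.74 FPKM at metestrus and 29.9 ± 7.94 FPKM at diestrus (log2 change -0.68, adjusted p = 0.0838).

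**Figure D4:**
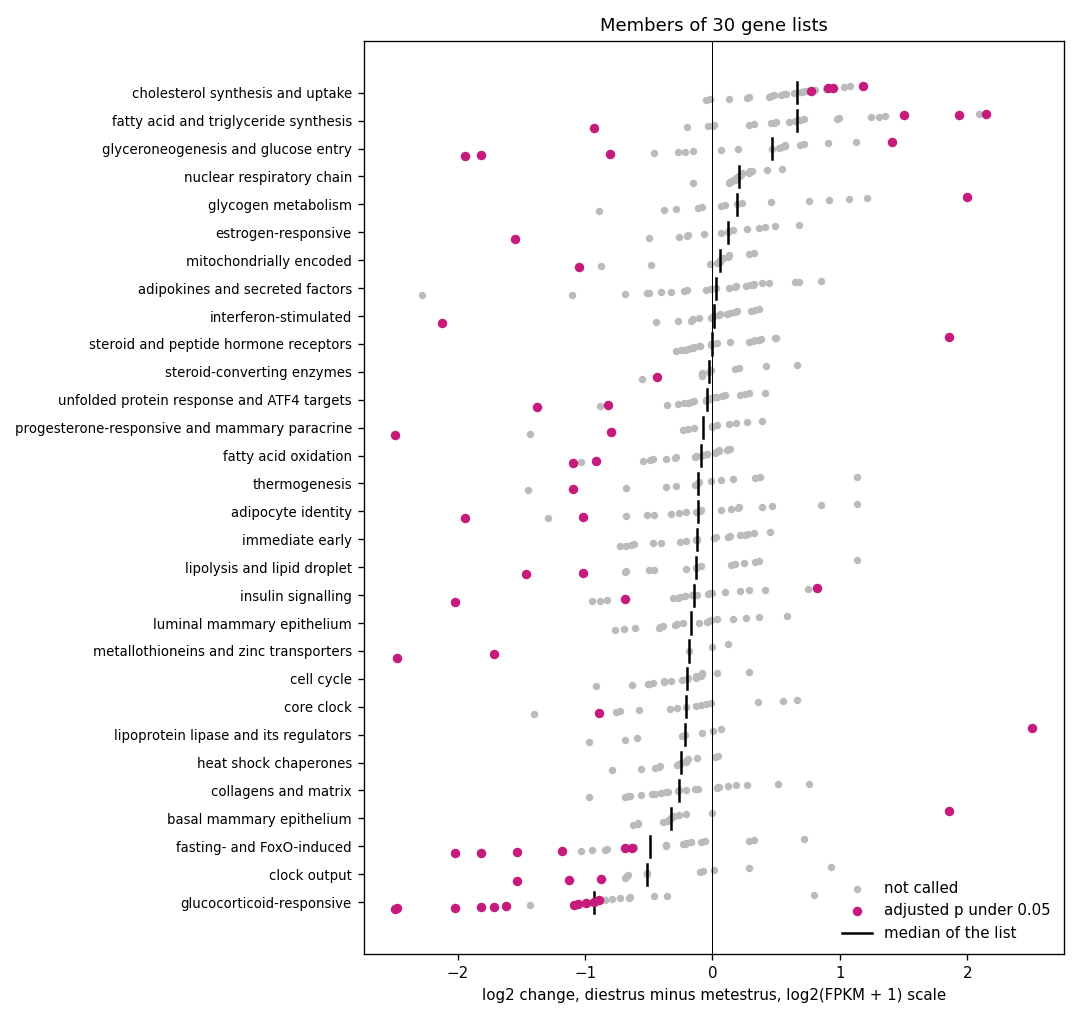
Log2 change, diestrus minus metestrus, of each tested member of 30 gene lists, sorted by the median of the list (bar). Coloured points passed an adjusted p under 0.05. The glucocorticoid list has the lowest median, -0.93, and the cholesterol and fatty acid lists the highest, 0.67 and 0.66. The lists were written with earlier results of these data known.

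Other settings ended further calls among the genes named here. Besides those given above, the fit to the 10 pads lost Lpin1 (adjusted p = 0.0919), Wnt4 (0.107), Noct (0.0654), Hsd17b11 (0.108), Tinagl1, Npc1, Arrdc2, Tlcd2, Pik3r1, Pgd, Hephl1, Wee1, Upk3a and mt-Ty (adjusted p = 0.0505 to 0.12 over these). Without the filter on low genes the losses also included these genes and Nfkbia, Per1, Foxo1, Foxo3, Irs3, Depp1, Pdk2, Pck1, Pdha1, Ppara, Acot1, Irf4, Slc5a3, Enpep and mt-Rnr1 (adjusted p = 0.0553 to 0.122). Median-ratio size factors ended the calls of Lpin1, Tinagl1, Nsdhl, Acat2, Lss, Cidec, Acaca, Me1, Pdk2, Pdha1, Pgd, Foxo1, Irs3, Tlcd2, Enpep, Hephl1, Wnt4, Per1, Hsd17b11, Upk3a and mt-Ty. Rescaling to an equal total also ended those of Nfkbia, Per1, Npc1, Ifngr1, Hsd17b11, Wee1, Upk3a and mt-Ty. A fit with the replicate number as a block lost Acaca, Me1, Acat2, Lss, Pck1, Pdha1, Ppp1r3b, Cidec, Irf4, Depp1, Foxo1, Foxo3, Nfkbia, Irs3 and Arrdc2. That fit also lost Per1, Slc5a3, Enpep, Hephl1, Hsd17b11, Wee1, Upk3a and mt-Ty. With the mitochondrial genes left out, the calls of Foxo1, Foxo3, Per1, Wnt4, Hsd17b11, Wee1 and Upk3a ended.

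Some of the called features are copies of other genes. Gm5182 matched Acaca over 6118 bases at 99.2% identity, Gm7049 and Gm7329 matched Me1 at 98.4% and 99.0%, Gm13502 was identical to Idi1 over 684 bases, Gm6123 matched Pdhb at 97.0% and Hsp25-ps1 matched Hspb1 at 99.4%. Copy and gene changed in the same direction, such as 1.497 for Gm5182 and 1.503 for Acaca, and 1.97 and 1.90 for the copies of Me1 against 1.93. Acaca and Me1 passed, while Hspb1 (adjusted p = 0.0625), Idi1 (adjusted p = 0.313) and Pdhb (adjusted p = 0.071) did not. How reads were divided within such pairs is uncertain, so the copies add no separate evidence, and they were counted among the 173.

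Levels at the other stages placed metestrus at one end for nearly all of these genes. Among the 117 falls metestrus had the highest of the 4 stage means in 116 and diestrus the lowest in 82. Among the 56 rises metestrus had the lowest mean in 54 and diestrus the highest in 46. The comparisons between stages share libraries, so these counts are descriptive. The genes were also selected for a difference between metestrus and diestrus in these same libraries, which favours such an order. No share over all genes tested is given. Mt1 was at 23.7 ± 6.45 FPKM at proestrus, 33.6 ± 18.004 FPKM at estrus, 64.9 ± 14.3 FPKM at metestrus and 18.9 ± 2.61 FPKM at diestrus. Txnip was at 388 ± 85.7 FPKM at proestrus, 465 ± 114 FPKM at estrus, 802 ± 139.7 FPKM at metestrus and 359.96 ± 88.01 FPKM at diestrus, a level at diestrus near those of proestrus and estrus. Elovl6 was at 113 ± 53.8 FPKM at proestrus, 68.1 ± 34.7 FPKM at estrus, 43.5 ± 25.02 FPKM at metestrus and 180.2 ± 61.9 FPKM at diestrus (SD, n = 5). Idh1 was at 149 ± 16.4 FPKM at proestrus, 130 ± 16.01 FPKM at estrus, 87.7 ± 9.72 FPKM at metestrus and 145 ± 18.99 FPKM at diestrus, so that only metestrus stood low. Oxtr also had its highest mean at proestrus, as did Idh1. It was at 60.4 ± 18.5 FPKM at proestrus, 19.96 ± 15.3 FPKM at estrus, 10.9 ± 2.6003 FPKM at metestrus and 41.6 ± 6.92 FPKM at diestrus. The change of Oxtr from proestrus to metestrus passed (log2 change -2.35, adjusted p = 0.000521). In all, 8 of the 56 rises had a higher mean at proestrus than at diestrus. The numbers of genes called in the other pairs, each with its own share, were 20 from proestrus to estrus (0.143%), 31 from estrus to metestrus (0.222%), 2 from diestrus to proestrus (0.0143%), 123 from proestrus to metestrus (0.879%). Between estrus and diestrus it was 0 (0%, limma, 850 at an unadjusted p under 0.05).

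**Figure D5:**
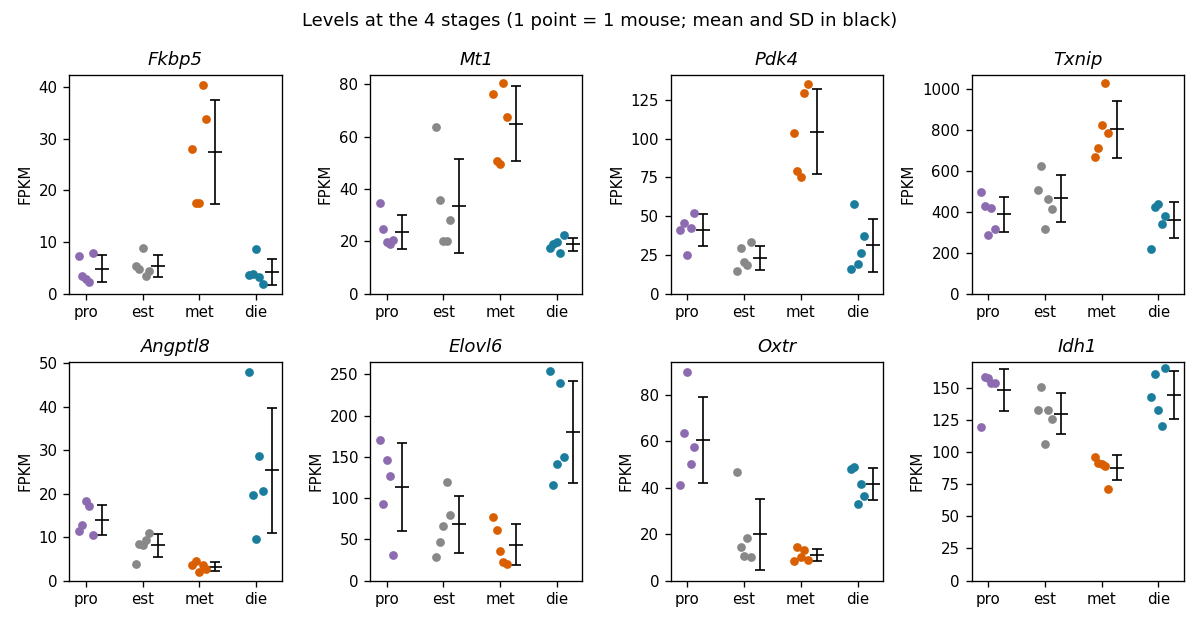
FPKM of 8 genes at the 4 stages, 1 point per mouse, with the mean and SD in black. Fkbp5, Mt1, Pdk4 and Txnip are highest in mean at metestrus, and Angptl8, Elovl6, Oxtr and Idh1 are lowest there.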

How the data were processed

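Poly(A) RNA of 20 fat pads was sequenced (150 bp paired-end), 1 library per mouse. Per the methods, the authors used Skewer for trimming and STAR 2.5.3a for alignment to GRCm38. The deposited values are FPKM per gene, for which the methods name HTSeq and the submitters' processing notes StringTie 1.3.1c. The annotation release is not given in the sources used here, and names and coordinates are from GENCODE M21, which held 35766 of 35841 identifiers. A gene was tested where 5 libraries or more reached 1 FPKM, with limma 3.58.1 (R 4.3.3) on log2(FPKM + 1), with 1 mean per stage, a variance trend and Benjamini-Hochberg adjustment. Single values per library were tested by exact permutation over 252 assignments (smallest p 0.00794). The depth of each library in reads was not used: 39.0% to 45.2% of low values lay within 0.1 of a whole fragment, where chance gives 20%, so reads were not recovered. No library repeated another (at most 0.0302% equal values in 190 pairs). On simulated data with 13987 genes the fit called 21, 38, 45 and 50 of 50 genes changed by 0.5, 1, 2 and 3 on the log2 scale, with 9 false calls. The changed genes were drawn from well-expressed genes only, and the noise was normal and independent between genes. Changes of genes near 1 FPKM and variation that genes share within a pad were therefore not covered.

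Named genes are up to 15 rises and 15 falls without overlap, called members of 30 pathway lists, and a fixed set, of which some are not reported here. The members and lists were chosen with earlier results of these data known. Copies were matched with blastn 2.17.0.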

Additional observations from a re-analysis of the deposited data

Results flagged for a closer look

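In 168 groups of 5 libraries tested by Dixon's criterion (critical value 0.71) 4 held a library far from the other 4 of its stage, where chance gives about 1 in 20. Scd3 was at 0.890 FPKM in metestrus-4 and at 0.0252 to 0.0442 FPKM in the other metestrus pads. Noct was at 5.35 FPKM in metestrus-1 and at 2.71 to 2.96 FPKM in the others. The luminal mammary markers summed to 202.2 FPKM in metestrus-3 against 447.7 to 591.8 FPKM, and the mast cell markers to 24.1 FPKM in the same pad against 67.5 to 97.8 FPKM. Metestrus-3 is also the pad with 6321 FPKM of muscle markers.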

How the results depend on the processing

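The count of 173 changed genes (56 higher, 117 lower at diestrus) was 171 with a pseudocount of 0.1, 170 with a minimum of 5 FPKM, 149 rescaled to an equal total, 155 without mitochondrial genes, 116 (30 higher) with median-ratio size factors and 165 without a variance trend. It moved to 70 (14 and 56) with no filter, which tests 35841 genes, to 113 (34 and 79) on the 10 libraries of the 2 stages, to 375 (152 and 223) with a lymphocyte covariate and to 1035 (478 and 557) with array weights. The cause of these differences was not tested. Leaving out 1 library gave 43 to 272 genes, 9 to 133 of them higher and 34 to 143 lower. All of the 173 that a fit included kept their sign in every fit. Under the scalings the median over all genes was 0.0425 at most on the log2 scale, with the mitochondrial genes left out, against -0.00179 as deposited.

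The replicate numbers of the labels did not pair the libraries. Deviations of same-numbered libraries correlated at -0.61 to 0.0411, and 0 of 5 libraries correlated best with their own number. With the number as a replicate block 94 genes were called (25 higher, 69 lower), 93 of them among the 173.

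The directions that turned were of genes that did not pass. Leaving out 1 library moved the log2 change of Esr1 between -0.21 (without diestrus-5) and 0.0015 (without diestrus-4), that of Lpl between -0.10 (without metestrus-2) and 0.25 (without diestrus-4), and that of Prlr between -0.13 (without diestrus-4) and 0.17 (without metestrus-4). With array weights the log2 change of Prlr was -0.082. FPKM carry no read depth, so the precision of genes near 1 FPKM is unknown, and 5 mice per stage limit that of all.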
